A study of Mus musculus with 3 samples.

Results

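Cells chosen as bipotent megakaryocyte-erythroid progenitors were described in 3 single-cell libraries of mouse bone marrow. A cell was selected on its own UMI counts (a UMI is the tag that marks 1 captured RNA molecule): at least 1 UMI each of Gata2, Itga2b and Vamp5, none of Ms4a2, at most 1 of Car1, and UMIs of at most 3 of 8 megakaryocyte genes (Pf4, Itga2b, Gp1bb, Gp9, Rab27b, Treml1, Mmrn1 and Cavin2). This gave 639 cells of 31292 kept cells, with 273 in the Control library, 153 in the IR library and 213 in the IR+CBD library. Control mice were not irradiated. IR mice received 6 Gy of gamma rays and solvent. IR+CBD mice received 6 Gy and cannabidiol (CBD, a non-psychoactive compound of hemp) at 50 mg/kg in each of 4 intraperitoneal injections around the irradiation. All were C57BL/6 animals, for which the study's methods state male mice, and marrow was taken at day 14. Each library was 1 pool of 3 mice, in which sorted Lin-Kit+, Lin-Kit- and Lin+ cells had been remixed at 5:4:1, so that a share of cells refers to this mixture and not to whole marrow. With 1 library per condition no test between conditions was possible, and all intervals are 95% intervals for counting error only. A library effect and a treatment effect cannot be told apart.

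Red cells and platelets share a progenitor in classical schemes of blood formation. Gata2 encodes a zinc-finger factor of stem and early progenitor cells, and its relative Gata1 takes over in erythroid cells, megakaryocytes and mast cells. Klf1 drives the erythroid program together with signals of the erythropoietin receptor (Epor), whereas Fli1 belongs to the megakaryocyte side, and Itga2b is the integrin chain CD41. A cell poised between both fates is commonly held to carry genes of each.

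At the same depth, stem cell genes in the selected cells averaged well above B-lineage cells, which were used as a baseline. B-lineage cells also carried UMIs of the megakaryocyte list, so they are no blank for it. Megakaryocyte genes lay less far above B-lineage cells, and the erythroid list as a whole stood close to them, with Gata1 and Epor above. The selection itself barred cells with more than 1 Car1 UMI, and early erythroid cells were gated by Car1, so that a low erythroid level against them was partly fixed. The erythroid list as a whole thus did not bear out the bipotent label, though Gata1 and Epor stood above the baseline. The label cannot be judged with this selection and this baseline, and the cells are called Gata2+Itga2b+Vamp5+ cells here. Klf1 stood at 1.81, 14.3 and 7.26 CPM (UMIs of a gene relative to all UMIs of the summed cells, as counts per 1000000) in Control, IR and IR+CBD, against 145 CPM in early erythroid cells of the Control library (Gata2 at 1 or more UMIs, Car1 at 2 or more). Every cell with 5000 or more UMIs was then thinned to 5000, and shallower cells were left out. This kept 1359 of 3380, 1318 of 3876 and 1046 of 3320 B-lineage cells, the deepest of that gate. Before thinning their median UMIs were 10442, 10357.5 and 9753.5, against 20369.5, 27083 and 21493 in the selected cells. Thinning evens out depth but not the part of free RNA, which may be larger in the shallower cells and was not tested. Klf1 was found in 1.47%, 5.23% and 2.82% of the thinned selected cells, beside 1.2%, 2.3% and 1.9% of the thinned B-lineage cells. Epor gave 3.77, 9.51 and 4.64 CPM and Gata1 13.1, 19.2 and 19.2 CPM, against 55.1 and 93.6 CPM in the early erythroid cells of Control. Gata1 was found in 6.99%, 6.54% and 9.86% of thinned cells, beside 0.883%, 1.75% and 1.34% of B-lineage cells, and Epor in 2.21%, 5.23% and 2.82%, beside 0.515%, 1.75% and 1.05%. On the other side, Meis1, a homeobox partner of stem cells and megakaryocytes, was found in 67.3%, 66.0% and 68.1% of thinned cells, beside 11.3%, 3.49% and 5.26% of B-lineage cells. Fli1 was found in 59.9%, 54.9% and 59.2%, which lay below its shares in B-lineage cells and so says little about these cells.

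Most cells held UMIs of both an erythroid and a megakaryocyte list, but so did B-lineage cells. Since B-lineage cells are no blank for the megakaryocyte list, the shares below say little about either gate. After thinning, at least 1 UMI of each list (27 erythroid genes without globins and 33 megakaryocyte genes) was found in 222 of 272 cells of Control (81.6%), 128 of 153 of IR (83.7%) and 174 of 213 of IR+CBD (81.7%), beside 79.0%, 81.9% and 83.4% of B-lineage cells. Among single regulators, Klf1 and Fli1 were found together in 3, 6 and 2 cells. Cells with Gata1 numbered 19, 10 and 21, and 18, 6 and 18 of them also held Meis1. Both were thus found in 6.62%, 3.92% and 8.45% of cells, beside 4.70%, 4.32% and 6.71% from the product of the single shares. For Klf1 and Fli1 these were 1.10%, 3.92% and 0.939%, beside 0.881%, 2.87% and 1.67%. Counts this small do not separate the 2, and the pairs were not tested. An absent UMI does not show an absent transcript at this depth.

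The erythroid list (31 genes) summed to 444, 851 and 736 CPM in Control, IR and IR+CBD. B-lineage cells of the same libraries, which are shallower, had 687, 1604 and 1106 CPM of it, but the order turned per droplet, with 10.8, 25.7 and 17.1 UMIs in a Gata2+Itga2b+Vamp5+ cell and 5.55, 11.9 and 7.15 in a B-lineage cell. At the same depth of 5000 UMIs the means without globins were 2.74, 3.92 and 3.07 UMIs against 2.25, 3.39 and 2.98. Early erythroid cells carried 5178, 6677 and 6688 CPM of it. The megakaryocyte list (35 genes outside the selection) gave 3089, 2727 and 3053 CPM, above the 1018, 703 and 680 CPM of early erythroid cells and below the level in cells with 4 or more of the 8 megakaryocyte genes, called megakaryocyte-rich cells. At 5000 UMIs, 33 genes of this list averaged 11.6, 9.01 and 10.8 UMIs, against 7.79, 6.69 and 7.03 in B-lineage cells. Early erythroid cells had 4.86, 3.39 and 3.36 UMIs, less than B-lineage cells, which are therefore no blank for this list. Among its members, Angpt1, a ligand of stem cell niches, led with 788, 753 and 856 CPM. The selection removed the cells richest in megakaryocyte genes, so low values against megakaryocyte-rich cells were partly fixed. It also required Itga2b, found in 20.8%, 16.7% and 16.9% of early erythroid cells. A higher megakaryocyte list against early erythroid cells was therefore partly fixed too. Ppbp, a platelet chemokine, had no UMI in the selected cells of any of the 3 libraries, against 11.8, 3.08 and 8.78 CPM in megakaryocyte-rich cells. Vwf, the platelet adhesion protein, gave 2.72, 3.89 and 3.83 CPM against 86.3, 67.4 and 110 CPM in megakaryocyte-rich cells. The plot of lineage lists by gate shows these levels in all 3 libraries.

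**Figure D1:**
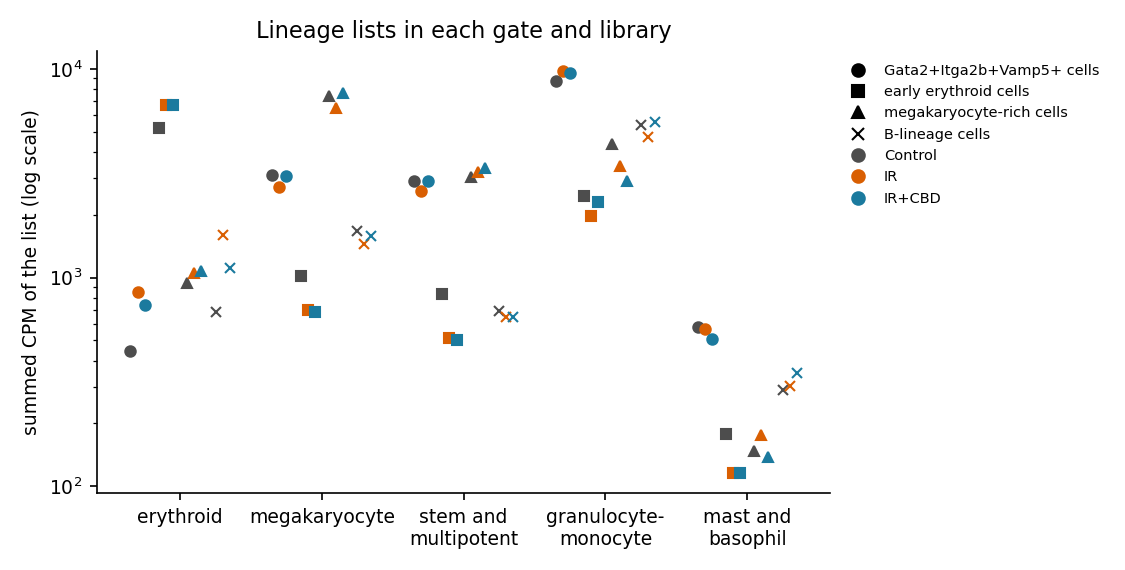
Summed CPM of 5 lineage gene lists (log scale) in 4 gates, with 1 point per library and gate; the shape marks the gate and the color the library. Gata2+Itga2b+Vamp5+ cells lie far below early erythroid cells for erythroid genes, between the other gates for megakaryocyte genes, and above the other 3 gates for granulocyte-monocyte progenitor genes (8791, 9778 and 9509 CPM).

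Stem and multipotent genes stood slightly below megakaryocyte-rich cells by summed CPM over 21 genes. Over 19 genes, by UMIs per cell at the same depth, they stood above. The gene sets differ, so this turn cannot be credited to depth. This list of 21 genes summed to 2914, 2606 and 2904 CPM, against 3038, 3200 and 3366 CPM in megakaryocyte-rich cells and 830, 514 and 505 CPM in early erythroid cells. Without thinning, the 21 genes gave 70.8, 78.8 and 67.6 UMIs per cell, against 70.4, 93.1 and 69.3 in megakaryocyte-rich cells. After thinning, a stem list of 19 genes averaged 11.1, 8.76 and 10.05 UMIs, against 7.81, 7.30 and 7.82 in megakaryocyte-rich cells. B-lineage cells had 3.11, 2.68 and 2.52 UMIs of it. Mecom, a stem cell transcription factor, gave 167, 233 and 258 CPM, and the surface marker Cd34 gave 222, 211 and 206 CPM against 19.5 CPM in early erythroid cells of Control. The receptor Kit gave 122, 121 and 103 CPM, Cd48 204, 248 and 232 CPM, and Cd47 623, 651 and 639 CPM. Among branch point transcription factors the highest were Etv6 (968, 978 and 971 CPM), Runx1 (904, 796 and 786 CPM), Mef2c (526, 417 and 485 CPM) and Lmo2 (389, 457 and 420 CPM), all known from early hematopoiesis. Lmo2, a partner of the Gata factors, was found in 84.6%, 87.6% and 83.1% of thinned cells, beside 22.6%, 19.5% and 18.6% of B-lineage cells.

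Of 11263 genes with 50 or more UMIs, 7.88% were at least 1.5-fold higher than in all other kept cells in each of the 3 libraries. The genes leading this contrast were chosen from the cells themselves and are given as a description. They included Abca4, a lipid transporter, at 8.30, 6.27 and 4.44 CPM, Esam, an adhesion molecule of stem cells and endothelium, at 8.75, 4.54 and 9.07 CPM, and Fgd5, a stem cell marker, at 4.53, 1.73 and 2.82 CPM. Col4a1, Phldb2, Palld, 2900018N21Rik, E430002N23Rik, Gm16758, Gm37818, Gm38197, ENSMUSG00000120157, ENSMUSG00000121147 and ENSMUSG00000120466 also led. Mdga1 was the most abundant of the 15, with 74.2, 53.6 and 67.8 CPM and UMIs in 69.2%, 63.4% and 59.2% of cells, beside 12.8%, 7.40% and 7.97% of the other cells.

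Against early erythroid cells, 19.7% of 15171 genes were at least 1.5-fold higher in each library, and the leading genes included several known from stem cells. Procr, the stem cell receptor EPCR, gave 5.13, 4.76 and 4.03 CPM here and 0.180, 0.00 and 0.0638 CPM there. Emcn, an endothelial and stem cell sialomucin, gave 12.2, 2.81 and 4.64 CPM. Abca4, Palld, Crispld1, Esam, Zfp532 and Prg3 were the other genes at this end. At the low end stood Acmsd, Lmcd1, Dnmt3c and Gm44005, with no UMI in the Gata2+Itga2b+Vamp5+ cells of any library, and Asb17, Paqr9, Trim10 and Sowaha. Paqr9 stood at 0.151, 1.51 and 0.403 CPM against 30.3, 40.3 and 43.8 CPM.

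Against megakaryocyte-rich cells, 4.22% of 12280 genes were at least 1.5-fold higher in each library, and the high end included genes of mast cells and eosinophils. Cpa3, carboxypeptidase of mast cells and early myeloid progenitors, gave 206, 205 and 157 CPM against 16.0, 16.7 and 14.3 CPM, in 54.2%, 56.9% and 47.4% of cells. Auts2 gave 362, 203 and 154 CPM against 56.5, 24.2 and 28.7 CPM. Prg2 and Prg3, granule proteins of eosinophils, were also at this end, but a few cells held them: the 5 richest cells carried 90.1%, 86.2% and 94.3% of all eosinophil-list UMIs, and the median cell had none. Bpifc, Otogl, Gm42992 and ENSMUSG00000120245 completed the high end. Kcnj5, Ppbp, Lhfp, Vwf, F2rl2, Clec1b, Gucy1b1 and Ache formed the low end, and F2rl2, a platelet thrombin receptor, gave 2.87, 2.38 and 2.62 CPM against 56.7, 31.3 and 47.6 CPM.

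The mast and basophil list (18 genes without Ms4a2, which the selection barred) summed to 578, 567 and 508 CPM, beside 290, 301 and 347 CPM in B-lineage cells, and per droplet to 14.0, 17.1 and 11.8 UMIs beside 2.34, 2.23 and 2.24. Cpa3, Lmo4 (136, 127 and 118 CPM), Ccl9 (80.9, 96.2 and 85.5 CPM), Hdc (65.6, 61.8 and 74.8 CPM) and Mcpt8 (46.5, 39.8 and 44.6 CPM) led it. Fcer1a, the chain of the IgE receptor that marks committed cells, was at 1.21, 1.95 and 1.82 CPM against 121 CPM in cells of Control with both Gata2 and Ms4a2. The selection barred Ms4a2 and that gate required it, so a low Fcer1a against it was partly fixed.

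The cells were not uniform, and they spread along an axis from stem cell genes to granulocyte-monocyte genes. The granulocyte-monocyte progenitor list (17 genes, with Mpo, Elane, Prtn3 and Ctsg, the proteins of primary granules) ranged over single cells from 488 to 42281 CPM in Control, from 548 to 37386 CPM in IR and from 347 to 56076 CPM in IR+CBD. Its median was 2553, 5088 and 3258 CPM. More than 1% of all UMIs came from this list in 57 cells of Control (20.9%, 16.2% to 26.2%), 47 of IR (30.7%, 23.5% to 38.7%) and 65 of IR+CBD (30.5%, 24.4% to 37.2%). The limit of 1% was set after the values were seen and cuts a continuous range, with 23, 19 and 21 cells between 0.8% and the reciprocal of 0.8%.

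**Figure D2:**
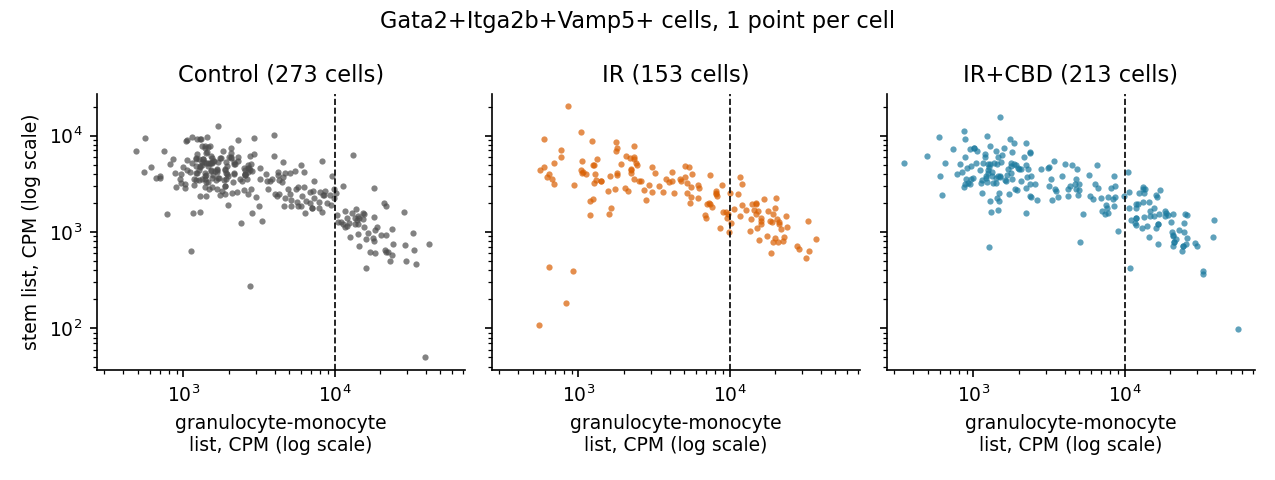
Each point is 1 Gata2+Itga2b+Vamp5+ cell, placed by its CPM of the granulocyte-monocyte list (x axis) and of the stem list (y axis), both on log scales; the dashed line marks 1% of UMIs. In each library cells richer in granulocyte-monocyte genes carry fewer stem genes, and 57, 47 and 65 cells lie right of the line.

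The 2 ends of this range differed in several lineage genes outside the list that split them. Mpo, which is in that list and had to differ, stood at 4077, 4197 and 4058 CPM in cells over 1% and at 682, 685 and 478 CPM in the others. Meis1 gave 103, 157 and 117 CPM in cells over 1% and 434, 406 and 446 CPM in the others, and Mecom 31.4, 106 and 120 CPM against 242, 312 and 352 CPM. Gata1 gave 2.12, 10.1 and 5.46 CPM against 19.2, 25.03 and 28.5 CPM. The megakaryocyte list summed to 1559, 1509 and 1625 CPM in cells over 1%, against 3934, 3494 and 4030 CPM in the others. Cells over 1% had UMIs of 1.33, 1.28 and 1.26 of the 8 megakaryocyte genes on average, against 1.73, 1.76 and 1.82. The selection required Itga2b, which is 1 of these 8 genes. Megakaryocyte genes were thus carried mainly by the cells under 1%. Cd34 barely differed, at 201, 205 and 213 CPM against 233, 215 and 201 CPM. Cells over 1% were deeper, with median UMIs of 40669, 35924 and 29855 against 17800, 23828 and 17622, and the part of depth in these differences was not tested.

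The selection rests on few molecules. A single Itga2b UMI was all that 158 of 273, 83 of 153 and 126 of 213 cells had, and a single Gata2 UMI all that 98, 57 and 79 had. Vamp5, a vesicle fusion protein, was more abundant, with 3 or more UMIs in 224, 134 and 177 cells. At the upper limit, 45, 28 and 38 cells carried 3 of the 8 megakaryocyte genes and were kept, whereas 36, 12 and 28 carried 4 and were not. Cells with 1 Car1 UMI numbered 40, 37 and 29, and those just outside with 2 numbered 8, 4 and 6. After thinning, megakaryocyte-list UMIs per cell averaged 9.71, 7.08 and 7.64 with 1 of the 8 genes, 11.6, 8.92 and 12.7 with 2, and 17.2, 15.1 and 16.7 with 3, and 21.9, 22.8 and 23.2 just outside the limit with 4. This order is partly fixed, since the selection counted genes of the same lineage.

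Depth and droplet quality bear on these counts. Median UMIs per selected cell were 20295, 27083 and 21493, and medians of all other kept cells were 12168 to 13929. Predicted doublets made up 14.7%, 16.3% and 11.3% of the selected cells and 8.22% to 8.53% of kept cells. Of 127 barcodes found in more than 1 library, 4 belonged to selected cells, and none was selected in both libraries. UMIs of the neutrophil list were spread unevenly. The median cell had 325, 274 and 357 CPM, but 15, 3 and 10 cells took over 1% of their UMIs from it, and predicted doublets held 94.6%, 90.1% and 96.8% of these UMIs.

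The share of Gata2+Itga2b+Vamp5+ cells was lower in IR and nearer to Control in IR+CBD. They were 2.56% of kept cells in Control (2.27% to 2.88%), 1.48% in IR (1.26% to 1.73%) and 2.07% in IR+CBD (1.81% to 2.37%), and the intervals of IR and IR+CBD did not overlap. The share in IR was 0.578 times that in Control (0.471 to 0.707), that in IR+CBD 1.40 times that in IR (1.13 to 1.74) and 0.811 times that in Control (0.675 to 0.973). Counted after thinning, which removes differences in depth, the cells numbered 87, 40 and 66 of 7876, 7328 and 7371, with ratios of 0.494 (0.331 to 0.726) and 1.64 (1.09 to 2.49).

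The 2 neighbouring gates went different ways. Megakaryocyte-rich cells were 1.64%, 0.754% and 1.02% of kept cells, with a ratio of 0.460 between IR and Control (0.348 to 0.604) and of 1.36 between IR+CBD and IR (1.00 to 1.84). Early erythroid cells were 5.05%, 9.90% and 8.25%, with ratios of 1.96 (1.76 to 2.18) and 0.834 (0.760 to 0.914). Cells with Gata2 as such made up 18.7%, 19.2% and 18.4%. The libraries parted at the Itga2b step, which 41.8%, 33.2% and 36.2% of Gata2 cells passed, and at the Car1 step, which left 76.7%, 52.5% and 66.4% of the cells that reached it, whereas Vamp5 kept 93.1%, 97.0% and 93.8%. The Ms4a2 step left 68.4%, 61.2% and 69.8%, and the limit on the 8 megakaryocyte genes went the other way, leaving most in IR, with 66.8%, 74.3% and 71.7%. Shares in a mixture depend on one another, so a lower share here does not show fewer cells per femur.

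**Figure D3:**
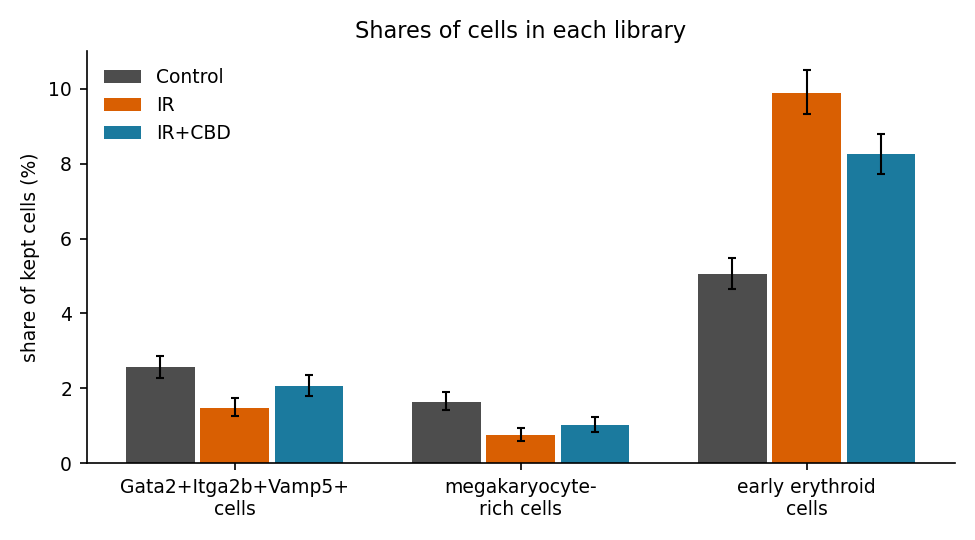
Bars give the share of kept cells (%) in 3 gates, 1 bar per library, and lines the exact 95% binomial interval for counting error. Gata2+Itga2b+Vamp5+ cells stand at 2.56%, 1.48% and 2.07%, megakaryocyte-rich cells follow the same order, and early erythroid cells are highest in IR at 9.90%.

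Between conditions, UMIs were summed over the selected cells of each library. In IR over Control, 322 of 10485 genes with 50 or more UMIs (3.07%) were at least 1.5-fold higher and 619 (5.9%) at least 1.5-fold lower. In IR+CBD over IR, 245 of 10024 genes (2.44%) were higher and 255 (2.54%) lower. The median log2 ratio over all genes with 20 or more UMIs was -0.01 and -0.02. Both comparisons share the IR library, so that a chance shift of IR alone would appear in both with opposite signs.

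Interferon-response genes were higher in IR and lower again in IR+CBD. Of 54 measured genes of the list, 51 were higher in IR than in Control, with a median log2 ratio of 0.90, and 30 of 49 with 50 or more UMIs passed 1.5-fold, beside 3.07% of all genes. In IR+CBD, 48 of 54 were lower than in IR, with a median of -0.60, and 26 of 50 passed 1.5-fold, beside 2.54% of all genes. Isg15, a ubiquitin-like protein, gave 9.96, 49.1 and 17.7 CPM in Control, IR and IR+CBD, a ratio of 4.93 (3.73 to 6.59) and then of 0.361 (0.279 to 0.464), and was seen in 53 of 273, 85 of 153 and 47 of 213 cells. Rtp4 gave 8.15, 42.4 and 11.9 CPM, Oasl1 2.72, 23.1 and 3.83 CPM, and Ifi27 103, 237 and 98.6 CPM. Ifit1, an RNA-binding restriction factor, was found with 3, 43 and 8 UMIs, a ratio of 20.5 (6.58 to 104) between IR and Control. For Rtp4, Oasl1, Ifi27 and Ifit1 the interval of the ratio of IR+CBD over Control included 1, whereas Isg15 was still 1.78 times its level in Control (1.28 to 2.49).

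The surface protein Sca-1, encoded by Ly6a and itself responsive to interferon, moved with this group. It gave 13.3, 63.1 and 16.9 CPM and was seen in 55, 79 and 41 cells. B-lineage cells had 46.5 CPM of it in IR, and early erythroid cells 3.19 CPM. Ifi27l2a gave 12.1, 85.8 and 15.9 CPM, but B-lineage cells carried 1876 CPM of it in IR, so the part of free RNA in its level was not tested. Isg15 and Rtp4 were at 46.8 CPM each in B-lineage cells of IR, about their level in the selected cells.

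Antigen presentation genes of MHC class I moved the same way with smaller ratios. Of 22 measured genes 20 were higher in IR, with a median log2 ratio of 0.60, and 20 were lower in IR+CBD, with a median of -0.26. H2-K1 gave 641, 1153 and 866 CPM and was found in every selected cell. H2-Q7, a nonclassical gene with near-identical relatives whose reads may be split, gave 92.8, 270 and 141 CPM. B2m, the shared light chain, gave 996, 1618 and 1259 CPM.

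Not every interferon-list gene followed. Ifitm1, the most abundant of the list and a membrane restriction factor, gave 1472, 724 and 740 CPM, a ratio of 0.491 (0.472 to 0.511) in IR and of 1.02 (0.975 to 1.07) in IR+CBD over IR. The summed list, of which it is the largest part, therefore moved less than the median gene, at 4480, 4845 and 3807 CPM. Ifitm2 gave 750, 652 and 658 CPM, and Ifitm3 581, 694 and 448 CPM.

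The interferon pattern was not particular to these cells. The median log2 ratio of the list was 1.24 in early erythroid cells and 0.94 in megakaryocyte-rich cells for IR over Control, and -0.93 and -0.85 for IR+CBD over IR. It was also present at both ends of the granulocyte-monocyte range, with 0.80 and -0.79 in cells over 1%, and 0.91 and -0.49 in the others.

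Promoters of the list can be read for the element that interferon-activated factors bind. In the 250 bases before the start, GAAANNGAAA or its reverse complement TTTCNNTTTC was present for 22 of 47 interferon-list genes in the RefSeq promoter table (46.8%), 2 of 33 immediate early genes (6.06%) and 936 of all 27025 genes (3.46%). The sites of 4 list genes are shown because their levels or their place in the list carry the result, 5′ to 3′ on the gene's strand, with the motif in capitals.
Isg15: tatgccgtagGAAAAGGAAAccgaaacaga
Ifit1: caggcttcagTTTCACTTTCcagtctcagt
Bst2: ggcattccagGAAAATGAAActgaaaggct
Ifitm2: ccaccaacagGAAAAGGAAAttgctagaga
In build GRCm38.p6 they lie at chr4:156200877-156200906 on the minus strand for Isg15, chr19:34640775-34640804 on the plus strand for Ifit1, chr8:71537583-71537612 on the minus strand for Bst2 and chr7:140955988-140956017 on the minus strand for Ifitm2. Each is upstream of the annotated start, with 68, 94, 120 and 36 bases from the motif to the start. Bst2, tetherin, gave 126, 222 and 146 CPM, whereas Ifitm2 did not follow, so the letters alone did not separate the genes that moved. No match was found for Oasl1, and Rtp4, Ifi27 and Ifi27l2a have no entry in the table. The motif is a description of the sequence and not a measured binding site.

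Immediate early genes, which cells switch on within minutes of a stimulus, were lower in both irradiated libraries. Of 40 genes 38 were lower in IR than in Control, with a median log2 ratio of -0.76, and 25 of 38 with 50 or more UMIs passed 1.5-fold, beside 5.9% of all genes. Egr1 gave 620, 239 and 281 CPM, Fos 482, 216 and 241 CPM, Jun 1303, 747 and 957 CPM, Jund 819, 488 and 550 CPM, Ier2 580, 372 and 438 CPM and Nr4a1 194, 66.2 and 97.8 CPM. In IR+CBD over IR, 29 of 38 genes were higher, with a median of only 0.18, and 1 passed 1.5-fold. Myc, which is in the same list, went against it with 89.6, 115 and 93.8 CPM.

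**Figure D4:**
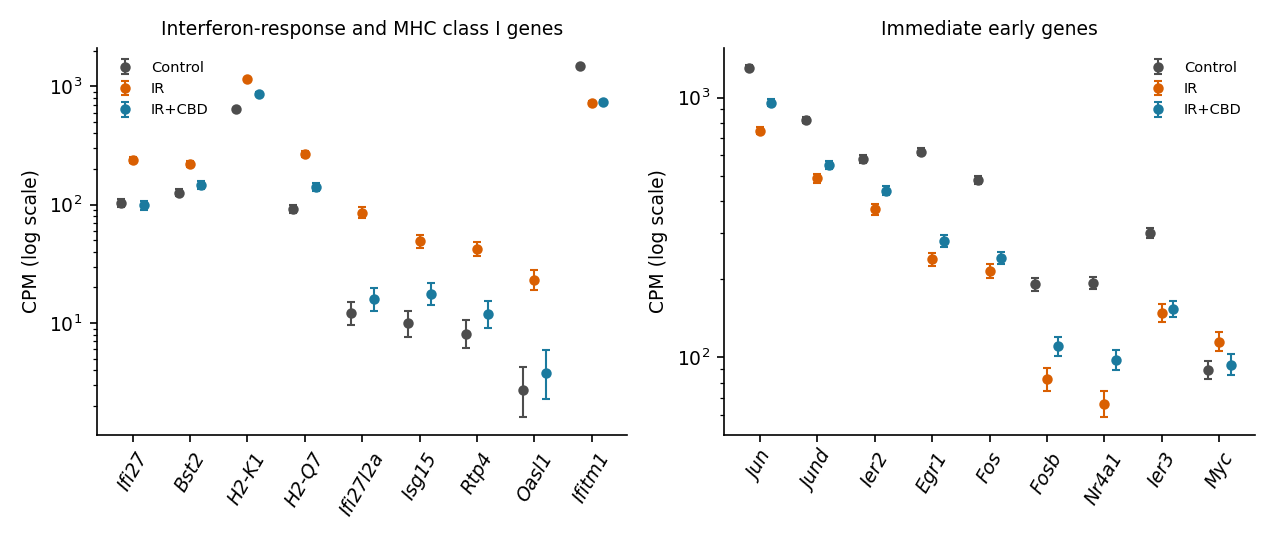
CPM (log scale) of interferon-response and MHC class I genes (left) and immediate early genes (right) summed over Gata2+Itga2b+Vamp5+ cells, 1 point per library with its exact 95% Poisson interval. Isg15, Rtp4, Oasl1 and Ifi27 are highest in IR, Ifitm1 is highest in Control, and 8 immediate early genes other than Myc are highest in Control.

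The lower level in IR was larger in the cells under 1% of granulocyte-monocyte UMIs, a difference that was not tested. There the immediate early list summed to 10005, 5211 and 6230 CPM and its median log2 ratio was -0.84, whereas cells over 1% had 3450, 3267 and 3533 CPM and a median of -0.14. Megakaryocyte-rich cells had a median of -0.19 and early erythroid cells of -0.97.

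Genes of the BMP and TGF-beta pathway were mostly lower in IR. Of 24 measured genes 17 were lower, with a median of -0.32, and 7 of 23 passed 1.5-fold, beside 5.9% of all genes. The inhibitors Skil (88.9, 43.7 and 82.9 CPM), Ski (109, 55.6 and 74.2 CPM) and Smad7 (107, 66.6 and 98.8 CPM) were lowest in IR. Tgfbr3, the coreceptor betaglycan, was higher in both irradiated libraries, with 54.9, 111 and 113 CPM.

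Stem, megakaryocyte and branch point genes had medians near 0, with members that went both ways. In IR over Control, 5 of 18 stem genes were at least 1.5-fold lower and 1 higher, beside 5.9% and 3.07% of all genes, and 4 of 21 megakaryocyte genes were higher and 2 lower. Their median log2 ratios in IR over Control were -0.12 over 20 genes, -0.09 over 25 and 0.03 over 30, and in IR+CBD over IR 0.02, 0.18 and -0.03. Ctla2a gave 694, 417 and 633 CPM, and Hlf, a stem cell factor, gave 79.7, 50.2 and 51.0 CPM. Mecom and the adhesion receptor Selp (17.1, 36.5 and 35.1 CPM) were higher in both irradiated libraries than in Control. Receptors of growth factors gave medians of 0.04 and -0.09 over 26 genes, and Csf2rb, the common chain of interleukin-3 and GM-CSF receptors, gave 64.0, 44.3 and 35.9 CPM.

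Summed over all selected cells, cell cycle and housekeeping genes were mostly slightly higher in IR, and few passed 1.5-fold. Of all 12661 genes 6155 were higher in IR than in Control, against 36 of 46 genes of S phase, 38 of 45 of G2/M phase and 74 of 86 of oxidative phosphorylation. The p53 response went both ways instead, with 14 genes higher and 15 lower. At least 1.5-fold, 5 of 24 of its genes were lower and 2 higher, beside 5.9% and 3.07% of all genes. In IR over Control the medians were 0.15 for S phase, 0.14 for G2/M phase, -0.04 for the p53 response, 0.16 for oxidative phosphorylation and 0.02 for ribosomal proteins. In cells over 1% of granulocyte-monocyte UMIs, S phase, G2/M phase and oxidative phosphorylation had medians of only 0.07, -0.03 and 0.02. The other selected cells had 0.19, 0.24 and 0.24, and megakaryocyte-rich cells -0.05, 0.35 and -0.002. These differences were not tested. Cdkn1a, the p53 target p21, was lower in IR and in IR+CBD, with 145, 80.9 and 82.7 CPM, and Bax, a p53 target of cell death, gave 109, 127 and 116 CPM.

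Beside interferon-response genes, the ranked differences held erythroid and neutrophil genes, and few cells carried much of these lists. The erythroid list had a median log2 ratio of 2.05 in IR over Control (27 of 28 genes higher) and of -1.03 in IR+CBD over IR. The 5 richest cells held 45.4% of its UMIs in IR, 35.7% in IR+CBD and 6.08% in Control, and without them the medians were 0.53 and -0.17. The median cell had 422, 393 and 414 CPM, nearly the same in all libraries. Klf1 was found in 11 of 273, 25 of 153 and 24 of 213 cells. Slc25a21, a mitochondrial carrier, rested on 22 cells of IR (5.58, 80.2 and 8.47 CPM), Mt2, a metallothionein, on 20 (2.26, 26.6 and 7.86 CPM) and Iglc1, an immunoglobulin light chain, on 13 (5.73, 47.6 and 4.44 CPM). Gm29677 gave 1.36, 11.9 and 7.66 CPM, and Hebp1, a heme-binding protein, 4.68, 13.2 and 3.43 CPM.

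The neutrophil list had medians of -1.74 in IR over Control and 2.31 in IR+CBD over IR, with all 12 genes in 1 direction each time. S100a8 summed to 2666, 775 and 3473 CPM, Ngp to 387, 87.1 and 713 CPM and Lcn2 to 257, 67.7 and 410 CPM, and S100a9, Ltf, Cd177, Mmp9, Ifitm6 and Ceacam1 moved with them. With predicted doublets removed the medians were -0.59 and 0.28, and without the 5 richest cells of each library they were -3.46 and 3.85. The B-lineage list had medians of 0.98 and -1.06, which became -0.12 and 0.20 without predicted doublets. Slc15a2, a peptide transporter, gave 12.7, 1.30 and 11.7 CPM, in 52, 6 and 29 cells. It was lowest in IR outside these cells too, with 8.81, 1.02 and 10.1 CPM in early erythroid cells. Megakaryocyte-rich cells had 6.41, 2.20 and 11.6 CPM of it, and all other kept cells 9.80, 1.22 and 12.1 CPM. Abca13 gave 8.75, 1.30 and 9.88 CPM, St8sia6 14.8, 2.81 and 6.05 CPM, and the chemokine Cxcl2 81.3, 21.6 and 18.6 CPM, low in both irradiated libraries.

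**Figure D5:**
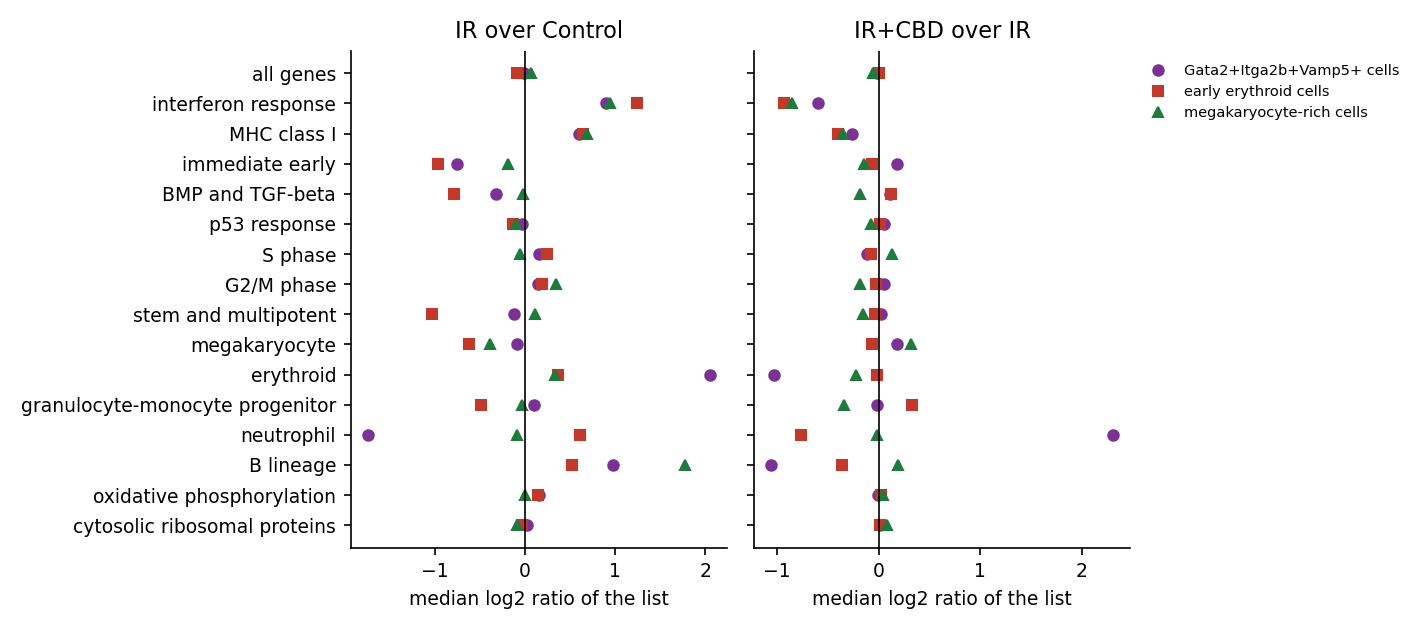
Median log2 ratio of each gene list (x axis) in IR over Control (left) and IR+CBD over IR (right), with 1 point per gate. Interferon and MHC class I lists lie right of 0 on the left panel and left of 0 on the right panel in all 3 gates, whereas the erythroid and neutrophil points of Gata2+Itga2b+Vamp5+ cells, which rest on few cells, stand far from those of the other gates.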

How the data were processed

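The authors deposited 1 matrix of UMI counts per library, not normalized, with its genes and barcodes. Per the file headers the counts came from another Cell Ranger release than the 4.0 that the labels and methods name, and the labels give GRCm39. Depth is given by the UMIs per cell in the report. As in the study's methods, barcodes needed 200 genes and at most 5% mitochondrial UMIs. Predicted doublets (Scrublet in scanpy 1.11.5, the highest-scoring 0.8% per 1000 cells in each library) were kept in the main values. UMIs were summed per library and gate. Intervals are Clopper-Pearson for shares, exact Poisson for CPM and conditional binomial (exact) for ratios. Genes with 50 or more UMIs in the 2 libraries (20 for list medians, pseudocount 0.5) were compared, without the genes of the selection. B-lineage cells (Cd79a at 2 or more, Ebf1 at 1 or more, no Gata2) served as a baseline for the lineage genes, though not as a blank for the megakaryocyte list. Scripts were tested on simulated data.

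The cells and the gene lists were chosen with earlier results of these data known. Named genes were, per list, those with the highest CPM; the 15 highest over other cells; per comparison the 10 highest and 10 lowest by the interval bound nearest to 1, with UMIs in at least 10 cells and at most 25% in 1 cell; and the 8 highest and lowest against each neighbouring gate. Other genes named, the sites shown and the 1% limit were chosen after their values were seen. Alternatives are listed in the closing section. Some items are not reported here.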

Additional observations from a re-analysis of the deposited data

Results flagged for a closer look

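In 3 cases the median of a gene list was past 1.5-fold in one direction in Gata2+Itga2b+Vamp5+ cells and past 1.5-fold in the other in early erythroid cells of the same libraries; smaller medians of opposite sign are not counted. The difference was not tested, since each condition is 1 library. The neutrophil list had a median log2 ratio of -1.74 in IR over Control, against 0.61 in early erythroid cells, and of 2.31 in IR+CBD over IR, against -0.76. The eosinophil list had a median of 0.94 in IR+CBD over IR, against -1.15, and 94.3% of its UMIs in IR+CBD lay in 5 cells.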

How the results depend on the processing

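No paired analysis was possible because each condition is 1 library. The share ratios kept their direction under every alternative that could be run, from 0.494 to 0.598 for IR over Control and from 1.36 to 1.64 for IR+CBD over IR. Leaving out cells with UMIs of 2 or more genes of another lineage list was not possible, since it left 1, 0 and 0 cells. With a minimum of 100 UMIs, 164 genes were higher and 352 lower in IR over Control, and 104 and 110 in IR+CBD over IR. With no minimum these were 3545, 5723, 4470 and 4345, by construction, as more and sparser genes enter. The erythroid medians of 2.05 and -1.03 were 0.53 and -0.17 without the 5 richest cells of each library. The neutrophil median of -1.74 in IR over Control was -0.59 without predicted doublets and -3.46 without the 5 richest cells. For IR+CBD over IR its 2.31 was 1.58 as a mean over cells, 0.28 without predicted doublets and 3.85 without the 5 richest cells. The immediate early median of 0.18 in IR+CBD over IR was 0.25 without cells over 1%. The B-lineage medians turned to -0.12 and 0.20 without predicted doublets. The interferon medians stayed between 0.81 and 0.92, and between -0.61 and -0.49. Leaving out the 5 richest cells, or cells over 1%, was chosen after seeing the data. Depth limits single genes below about 50 UMIs.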
